A study of Mus musculus with 16 samples.

Results

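The genes described here encode the microglial receptor Trem2 and proteins that carry or restrain its signal, namely Trem2, Tyrobp, Hcst, Syk, Plcg2, Inpp5d, Spi1 and Cd33. They were chosen by name, as the rows of the gene count table that bear one of these 8 symbols, and all 8 were found among 55385 genes. All 8 were also among the 17132 genes tested. Members and the lists used below were chosen with earlier results of these data known, so their counts beside all genes are descriptive only. Hcst passed the filter on low counts through transgene carriers alone, since its level was above the filter's limit of 0.436 CPM (counts scaled to a common library total) in 2 5xFAD-Dp16 and 3 5xFAD libraries and in 0 Dp16 and 0 WT libraries, so its place among the genes tested supports nothing.

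Polyadenylated RNA was sequenced from hippocampi taken at 9 months of age in 16 libraries, 4 per genotype, each group with 2 females and 2 males. The 5xFAD-Dp16 group carried both the transgenes and the duplication, the 5xFAD group the transgenes alone, the Dp16 group the duplication alone, and the WT group, labelled C57BL/6J, neither. The 5xFAD transgenes are human genes with familial Alzheimer mutations, driven in neurons by Thy1 promoter sequences, and the Dp16 duplication covers the part of mouse chromosome 16 that matches much of human chromosome 21. No treatment was given, the labels name no background strain for the 3 mutant groups, and none of the 8 genes lies on chromosome 16.

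Trem2 is a cell-surface receptor of myeloid cells, in the brain chiefly microglia, that binds lipids, lipoproteins and lipid-laden particles. It has no signalling tail of its own and works through adaptors in the membrane, of which Tyrobp (the protein DAP12) carries an activation motif that recruits the kinase Syk, while Hcst (DAP10) recruits phosphoinositide 3-kinase. Syk in turn acts on phospholipase C gamma, for which Plcg2 codes. The phosphatase encoded by Inpp5d and, in humans, the sialic acid receptor CD33 are known as brakes. Spi1 encodes the transcription factor PU.1 that sets myeloid gene expression. In humans, variants at or near several of these genes are linked to the risk of Alzheimer disease.

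RefSeq promoter windows of build GRCm38.p6, from 250 bases before to 50 after a transcript start, were at hand for 6 of the 8 genes, with 2 windows for Syk and 7 in all. They were searched on both strands for GAGGAA and GGAAGT, which hold the GGAA core known for PU.1 and other Ets factors, because the members rose together with the transgenes in the comparisons below. Windows printed here are those of the receptor Trem2 (chr17:48346151-48346450, plus strand), the second adaptor Hcst (chr7:30419805-30420104, minus strand), the phosphatase gene Inpp5d (chr1:87620062-87620361, plus strand) and the lectin gene Cd33 (chr7:43533122-43533421, minus strand), and each holds a match. They read 5′ to 3′ on the gene's strand, and capitals mark the matches, a match on the other strand reading TTCCTC.
Trem2: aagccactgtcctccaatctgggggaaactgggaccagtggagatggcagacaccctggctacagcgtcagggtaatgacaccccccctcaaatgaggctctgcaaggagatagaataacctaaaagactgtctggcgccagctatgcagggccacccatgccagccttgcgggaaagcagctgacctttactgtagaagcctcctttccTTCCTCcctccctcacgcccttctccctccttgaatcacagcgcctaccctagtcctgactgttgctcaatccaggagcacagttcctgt
Hcst: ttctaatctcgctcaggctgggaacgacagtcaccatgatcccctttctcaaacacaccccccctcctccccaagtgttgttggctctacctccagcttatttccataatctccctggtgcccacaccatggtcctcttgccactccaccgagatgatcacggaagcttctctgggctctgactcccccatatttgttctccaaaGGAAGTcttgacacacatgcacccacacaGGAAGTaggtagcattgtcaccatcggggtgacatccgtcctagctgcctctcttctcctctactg
Inpp5d: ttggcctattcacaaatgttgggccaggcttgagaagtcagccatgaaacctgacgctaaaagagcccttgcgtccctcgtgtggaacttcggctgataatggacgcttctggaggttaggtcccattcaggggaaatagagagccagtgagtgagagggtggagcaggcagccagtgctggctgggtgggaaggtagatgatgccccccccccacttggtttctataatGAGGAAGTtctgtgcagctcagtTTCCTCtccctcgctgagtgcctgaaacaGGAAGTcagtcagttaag
Cd33: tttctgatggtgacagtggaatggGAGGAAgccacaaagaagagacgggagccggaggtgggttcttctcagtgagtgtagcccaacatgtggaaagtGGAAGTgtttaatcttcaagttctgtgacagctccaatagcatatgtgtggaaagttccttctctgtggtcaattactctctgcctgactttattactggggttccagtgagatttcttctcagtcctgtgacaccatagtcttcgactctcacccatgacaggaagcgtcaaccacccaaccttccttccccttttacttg

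Trem2 had a single match, GAGGAA on the strand opposite to the gene, that begins at position -40 relative to the transcript start. Hcst held GGAAGT at -45 and -16, and Cd33 held GAGGAA at -226 and GGAAGT at -152. In Inpp5d the matches began at -20, -18, 4 and 33, with the first 2 overlapping in 1 run of capitals. One or the other motif was present in 5 of the 7 windows of members and in 43.4% of 32851 promoter windows of the same length (28.3% with GAGGAA, 23.8% with GGAAGT). A match describes letters only. The first Syk window and the Plcg2 window held none. In the second Syk window, which is not printed, GAGGAA began at -9 and GGAAGT, on the opposite strand, at 3.

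Counts over all genes summed to between 16922937 and 25308693 per library. All 8 hippocampal markers were present in every library. Their median log2 fold change was -0.30 with 0 called in 5xFAD-Dp16 against Dp16 and -0.53 with 1 called lower in 5xFAD against WT, and 5xFAD 15 had the lowest score (-1.24 relative to the WT mean); their part in the levels of the members was not tested. A list of 10 thalamus markers separated 6 libraries (5xFAD-Dp16 1, 5xFAD 6, 13 and 15, Dp16 14 and WT 4, with scores from 1.21 to 1.86 on the log2 scale) from the other 10 (-0.89 to -0.42). The 5xFAD group thus held 3 of the 6, and counts of members are given below with and without them. All 14 microglial markers tested rose with the transgenes in both transgene comparisons, and their summed level was 1030 to 1250 CPM in 5xFAD-Dp16, 885 to 1640 in 5xFAD, 458 to 587 in Dp16 and 469 to 568 in WT libraries. In whole tissue, more cells of a type and more RNA per cell cannot be told apart.

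The transgenes went with higher levels of nearly the whole set, on either chromosome 16 background. Because Hcst was tested only for its level in carriers, it is left out of the counts set against all genes. In 5xFAD against WT, 6 of the other 7 genes rose, all but Syk, where 5.31% of all genes tested rose and 1.96% fell. That split, 909 higher and 335 lower, was 1113 and 214 with upper quartile factors, 1097 and 1027 with DESeq2, 1506 and 1186 without a filter on low counts, and 1622 and 1864 without 5xFAD 10. With the duplication present, in 5xFAD-Dp16 against Dp16, 7 of 7 rose, where 2.99% of all genes rose and 0.035% fell. Hcst was also called in both. The median log2 fold change over the 7 was 1.11 in the first comparison, where that of all genes was 0.027, and 1.28 in the second, where it was -0.00729. The duplication alone, in Dp16 against WT, gave 0 calls among the members, as did 5xFAD-Dp16 against 5xFAD. Calls rest on edgeR's quasi-likelihood test with Benjamini-Hochberg adjustment over all genes tested, at an adjusted p below 0.05. When the 6 libraries of high thalamus score were left out, which leaves 5xFAD 10 alone in its group, 4 of the 7 rose in 5xFAD against WT, where 1.57% of all genes then rose, and 7 of 7 in 5xFAD-Dp16 against Dp16, where 2.76% did, and Hcst was called in neither. Counts stayed at 0 in Dp16 against WT, where 0.382% of all genes were called, and in 5xFAD-Dp16 against 5xFAD, where 0.559% were.

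**Figure D1:**
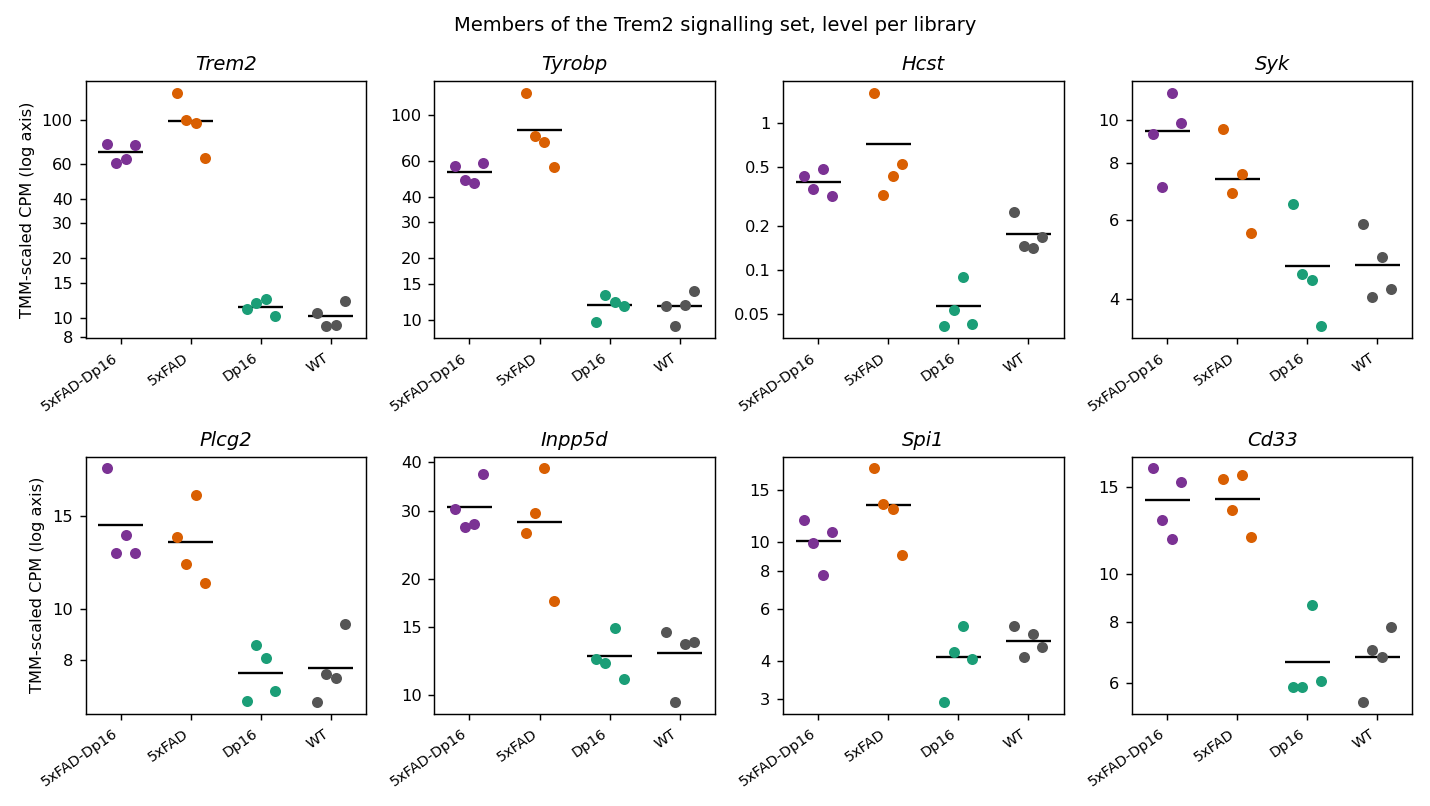
Level of each of the 8 genes in every library, in CPM scaled by trimmed-mean factors on a log axis, by genotype; points are libraries and bars are group means (n = 4). Every 5xFAD-Dp16 and 5xFAD point lies above every Dp16 and WT point in each panel but that of Syk, where the lowest 5xFAD library (5.59 CPM) is below the highest Dp16 library (6.49 CPM).

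Trem2 (chr17:48346401-48354147, plus strand, GRCm38), the receptor itself, rose most among the members in 5xFAD against WT. Its level was 76.1, 60.8, 63.8 and 75.4 CPM in 5xFAD-Dp16 replicates 1, 8, 9 and 11, against 11, 11.9, 12.4 and 10.2 CPM in Dp16 replicates 3, 5, 12 and 14. In 5xFAD replicates 6, 10, 13 and 15 it was 138, 99.8, 96.4 and 64.5 CPM, against 10.5, 9.03, 9.18 and 12.2 CPM in WT replicates 2, 4, 7 and 16. The lowest transgene carrier, 5xFAD-Dp16 8, thus stood several times above the highest library without transgenes, Dp16 12. The log2 fold change was 2.60 ± 0.163 (SE) in 5xFAD-Dp16 against Dp16 (6.06-fold, adjusted p = 3.03e-07). It was 3.26 ± 0.168 in 5xFAD against WT (9.57-fold, adjusted p = 1.26e-08).

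Tyrobp (chr7:30413760-30417585, plus strand), the adaptor that Trem2 needs to signal, rose next most in 5xFAD against WT. It had 56.7, 48.5, 46.7 and 58.6 CPM in the 5xFAD-Dp16 libraries, against 9.78, 13.3, 12.3 and 11.7 CPM in the Dp16 libraries, in the same replicate order. The 5xFAD libraries had 129, 79.0, 74.0 and 55.8 CPM, against 11.7, 9.31, 11.8 and 13.9 CPM in WT. As for Trem2, 5xFAD 6 was the highest library and 5xFAD 10 the next, and the lowest carrier (46.7 CPM) was above the highest non-carrier (13.9 CPM). Its log2 fold change was 2.16 ± 0.181 in 5xFAD-Dp16 against Dp16 (adjusted p = 3.44e-06) and 2.82 ± 0.184 in 5xFAD against WT (adjusted p = 2.02e-07).

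Hcst (chr7:30417712-30419854, minus strand), the other adaptor, is the nearest coding neighbour of Tyrobp, and the ends of these genes face each other across 126 bases with no shared exon. Its read counts were low, with 10, 8, 10 and 7 in 5xFAD-Dp16 libraries against 1, 1, 2 and 1 in Dp16 libraries. There were 40, 8, 9 and 15 reads in 5xFAD libraries against 4, 3, 3 and 4 in WT libraries. Every carrier stood above every non-carrier, but 5xFAD 6 alone held 40 of the 72 reads of its group. Summed over libraries and scaled to library size, the level was 7.10 times that of Dp16 in 5xFAD-Dp16 (95% exact counting interval 2.77 to 23.2) and 4.29 times that of WT in 5xFAD (2.40 to 8.23); these intervals cover counting error only. The fitted log2 fold changes were 2.73 ± 0.632 (adjusted p = 0.0158) and 1.97 ± 0.503 (adjusted p = 0.0240). The 5xFAD call was lost without any of the 4 WT libraries (adjusted p from 0.0506 to 0.0905), without 5xFAD 6 (log2 1.31, adjusted p = 0.124), without 5xFAD 15 (adjusted p = 0.0561) and with the thalamus score as a term (adjusted p = 0.0598), and the 5xFAD-Dp16 call without Dp16 3, Dp16 5 or 5xFAD-Dp16 9 (adjusted p from 0.0523 to 0.0657).

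Syk (chr13:52583173-52648792, plus strand), the kinase that binds the phosphorylated tail of Tyrobp, had the smallest value of the set in 5xFAD against WT. It stood at 9.31, 7.10, 11.5 and 9.84 CPM in 5xFAD-Dp16 libraries, against 6.49, 4.54, 4.41 and 3.47 CPM in Dp16 libraries. Levels were 9.56, 6.89, 7.57 and 5.59 CPM in 5xFAD libraries, against 5.86, 4.03, 4.94 and 4.2 CPM in WT libraries. The first pair of groups did not overlap, whereas 5xFAD 15 lay below WT 2 in the second. Syk rose in 5xFAD-Dp16 against Dp16 (log2 0.99 ± 0.206, 1.99-fold, adjusted p = 0.00978), a call lost without Dp16 12 (adjusted p = 0.0522) or 5xFAD-Dp16 9 (adjusted p = 0.0523). In 5xFAD against WT the value was 0.64 ± 0.207 (95% interval 0.23 to 1.04) with an adjusted p of 0.0731, which did not pass; it passed with DESeq2 (0.0447), with the thalamus score as a term (0.0492), without a filter on low counts (0.0205) and without Dp16 3 (0.0351).

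Plcg2 (chr8:117498291-117635142, plus strand) encodes the phospholipase that turns the Syk signal into calcium release and diacylglycerol. It had 18.5, 12.8, 13.8 and 12.8 CPM in 5xFAD-Dp16 libraries, against 6.70, 8.55, 8.06 and 6.98 CPM in Dp16 libraries. In 5xFAD libraries it had 13.7, 12.2, 16.5 and 11.2 CPM, against 6.66, 7.54, 7.39 and 9.37 CPM in WT libraries. Carriers and non-carriers did not overlap in either pair, and the narrowest gap lay between 5xFAD 15 and WT 16. The log2 fold change was 0.94 ± 0.150 in 5xFAD-Dp16 against Dp16 (adjusted p = 0.00108) and 0.77 ± 0.150 in 5xFAD against WT (adjusted p = 0.00496); the second was 0.59 once the 6 high-thalamus libraries were left out (adjusted p = 0.304).

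The phosphatase gene Inpp5d and the lectin gene Cd33 rose as well. Inpp5d (chr1:87620312-87720507, plus strand), whose product SHIP1 removes a phosphate from the lipid that phosphoinositide 3-kinase makes, had 30.4, 27.3, 27.8 and 37.3 CPM in 5xFAD-Dp16 libraries, against 12.4, 12.1, 14.9 and 11 CPM in Dp16 libraries. It had 26.2, 29.6, 38.6 and 17.5 CPM in 5xFAD libraries, against 14.6, 9.60, 13.6 and 13.7 CPM in WT libraries. The 5xFAD group was spread widely, from replicate 15 just above the WT range to replicate 13, the highest of all libraries. Inpp5d rose by 1.28 ± 0.165 on the log2 scale in 5xFAD-Dp16 against Dp16 (adjusted p = 1.51e-04) and by 1.11 ± 0.165 in 5xFAD against WT (adjusted p = 4.26e-04).

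Cd33 (chr7:43524216-43544428, minus strand), a sialic acid-binding lectin whose human counterpart carries an inhibitory motif, stood at 16.4, 12.9, 11.8 and 15.4 CPM in 5xFAD-Dp16 libraries, against 5.88, 5.88, 8.64 and 6.05 CPM in Dp16 libraries. Values were 15.6, 13.5, 15.9 and 11.9 CPM in 5xFAD libraries, against 5.49, 7.01, 6.78 and 7.82 CPM in WT libraries. All 8 carriers lay above all 8 non-carriers, and Dp16 12 stood apart from the other Dp16 libraries. The rise was 1.09 ± 0.150 in 5xFAD-Dp16 against Dp16 (log2, adjusted p = 2.64e-04) and 1.05 ± 0.150 in 5xFAD against WT (adjusted p = 2.91e-04); leaving out the high-thalamus libraries gave 1.06 in 5xFAD against WT, with an adjusted p of 0.0687.

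Spi1 (chr2:91082390-91115756, plus strand), the gene of PU.1, had 11.9, 9.94, 7.77 and 10.8 CPM in 5xFAD-Dp16 libraries, against 2.92, 4.28, 5.25 and 4.06 CPM in Dp16 libraries. Its 5xFAD libraries had 17.7, 13.5, 12.9 and 9.10 CPM, against 5.24, 4.13, 4.94 and 4.45 CPM in WT libraries. As with Trem2 and Tyrobp, 5xFAD 6 and 5xFAD 10 were the highest of all libraries, and no carrier reached down to a non-carrier. Spi1 rose by 1.29 ± 0.162 on the log2 scale in 5xFAD-Dp16 against Dp16 (adjusted p = 1.09e-04) and by 1.49 ± 0.161 in 5xFAD against WT (adjusted p = 1.67e-05). Counted over the set without Hcst, 7 of 7 members in 5xFAD-Dp16 against Dp16 and 6 of 7 in 5xFAD against WT were higher without overlap between the groups, as were 6.56% and 7.62% of all genes.

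**Figure D2:**
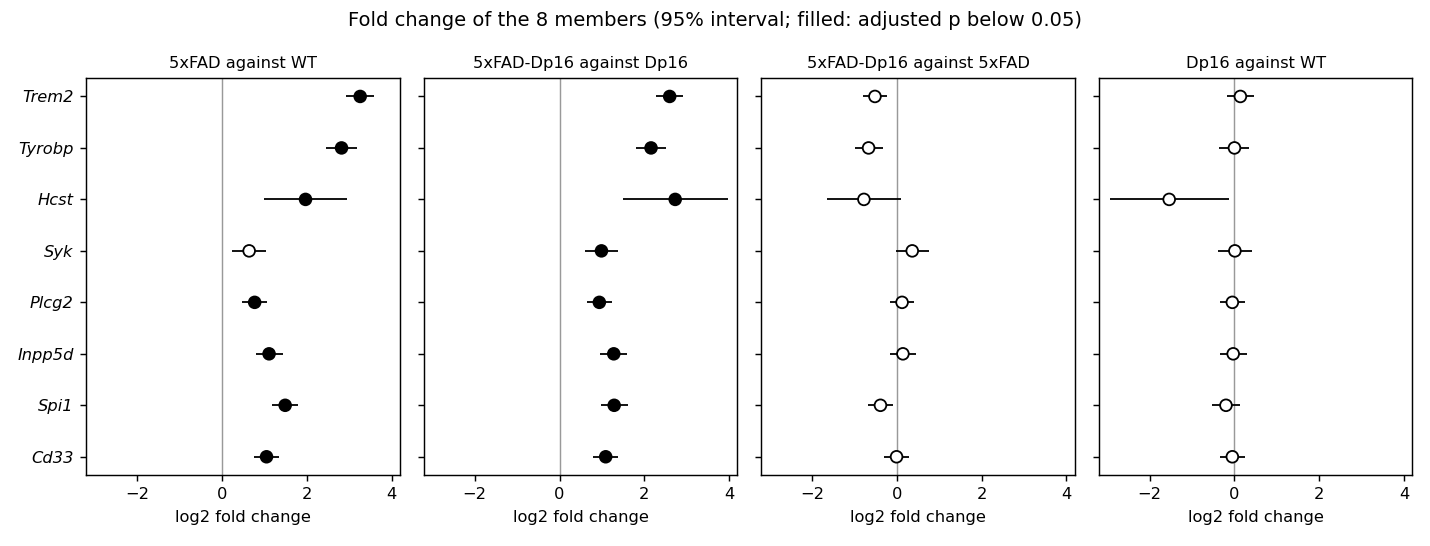
Log2 fold change of each gene in the 4 comparisons of genotypes, with 95% intervals; filled points passed an adjusted p of 0.05. Filled points appear only in the 2 transgene comparisons, 7 in 5xFAD against WT and 8 in 5xFAD-Dp16 against Dp16, and the values of Trem2 and Tyrobp are negative in 5xFAD-Dp16 against 5xFAD.

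The duplication on its own left the members near their WT levels. In Dp16 against WT, 0 of 8 were called, where 0.228% of all genes were. An unadjusted p below 0.05 was found for 977 of all 17132 genes tested and for 1 of the 8 members. That gene was Hcst, with 5 reads over the Dp16 libraries against 14 over the WT libraries, a ratio of 0.329 (95% exact counting interval 0.0927 to 0.966), a fitted log2 value of -1.54 ± 0.715 and an adjusted p of 0.831. Its Dp16 and WT libraries did not overlap, as was so in this direction for 2.07% of all genes. Hcst was below the filter's limit of 0.436 CPM in every one of these libraries, with 1 to 4 reads each. Its lack of overlap thus supports nothing. The other 7 values ran from -0.20 (Spi1, 95% interval -0.52 to 0.13) to 0.14 (Trem2, -0.18 to 0.46), and their adjusted p-values were all at least 0.993. DESeq2 and each other alternative also called 0 members.

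In 5xFAD-Dp16 against 5xFAD, which asks what the duplication does once the transgenes are present, 0 of 8 members were called. That was so for 0.304% of all genes. An unadjusted p below 0.05 was found for 3266 of all 17132 genes tested and for 3 of the 8 members. The lowest p-values were those of Tyrobp, at -0.67 ± 0.169 (0.630-fold, 95% interval -1 to -0.33, unadjusted p = 0.00130, adjusted p = 0.0997), and Trem2, at -0.52 ± 0.150 (0.698-fold, -0.81 to -0.23, unadjusted p = 0.00331, adjusted p = 0.124). Group means were 52.6 ± 5.90 and 84.4 ± 31.1 CPM for Tyrobp and 69.0 ± 7.90 and 99.6 ± 30 CPM for Trem2 (SD, n = 4) in 5xFAD-Dp16 and 5xFAD. The 4 libraries of 5xFAD-Dp16 lay close together, while 5xFAD ran from replicate 15, inside the 5xFAD-Dp16 range, to replicate 6 far above it. Spi1 followed by p, at -0.39 ± 0.155 (unadjusted p = 0.0221, adjusted p = 0.195). Syk leaned the other way, at 0.36 ± 0.202 (95% interval -0.03 to 0.76, adjusted p = 0.333), Hcst, the largest in size but low in counts, was at -0.78 ± 0.449 (unadjusted p = 0.101), and Plcg2, Inpp5d and Cd33 lay between -0.01 and 0.14.

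Whether Trem2 and Tyrobp passed in that comparison rested on the test used. DESeq2 called both (Trem2 -0.50, adjusted p = 0.0446; Tyrobp -0.64, adjusted p = 0.0167), as did edgeR without a filter on low counts (adjusted p = 0.00018 for Trem2 and 4.72e-07 for Tyrobp). Leaving out 5xFAD 15 called Trem2 (-0.66, adjusted p = 0.0293), and leaving out 5xFAD 10 called Tyrobp (-0.63, adjusted p = 0.0446). The main fit called 52 of all 17132 genes here, DESeq2 called 720 of 10489, and edgeR without the filter 1656 of 32180. It was 42 of 17362 without 5xFAD 15 and 2045 of 17440 without 5xFAD 10. The direction of Trem2 and Tyrobp was negative under each alternative run. Microglial markers as a list leaned the same way, with a median of -0.29 over 14 genes and 0 called. So did border macrophage markers (-0.72 over 7 genes) and thalamus markers (-0.70 over 10). Hippocampal markers (0.21 over 8), monocyte and neutrophil markers (0.30 over 2) and the 1 tested lymphocyte marker (0.59) leaned the other way. In each list 0 were called. The alternatives run included the thalamus score as a term, and the part of the other lists in these values was not tested.

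The interaction, the transgene effect with the duplication minus that without it, tests the difference itself. It was -0.66 ± 0.222 for Trem2 (95% interval -1.10 to -0.22, unadjusted p = 0.00933) and -0.66 ± 0.248 for Tyrobp (-1.15 to -0.18, unadjusted p = 0.0174), each with an adjusted p of 0.718. Of all genes 0 were called, 0% of those tested, and 1114 had an unadjusted p below 0.05; DESeq2 called 0. Without a filter on low counts both genes passed (adjusted p = 0.00803 for Trem2 and 0.00880 for Tyrobp), among 290 genes. The other 6 members ran from -0.20 (Spi1) to 0.76 ± 0.859 (Hcst), none with an unadjusted p below 0.05. Medians of marker lists in the interaction were -0.88 (thalamus, 10 genes), -0.25 (border macrophage, 7), -0.11 (microglial, 14) and 0.30 (hippocampal, 8). They were -0.71 for 2 monocyte and neutrophil markers and -1.23 for 1 lymphocyte marker, with 0 called in each list. The alternatives run included the thalamus score as a term, and the part of the other lists was not tested.

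Because the microglial markers rose together, each gene was also tested per microglial marker, that is, with the geometric mean CPM of the 14 markers (Csf1r, Cx3cr1, P2ry12 and Tmem119 among them) in place of library size. On this scale Trem2 rose by 2.05 ± 0.144 in 5xFAD against WT (4.13-fold, adjusted p = 7.39e-10) and Tyrobp by 1.62 ± 0.155 (3.06-fold, adjusted p = 3.07e-09), where 0.852% of all genes rose. Syk, at -0.58 ± 0.224 (adjusted p = 0.0200), and Plcg2, at -0.40 ± 0.184 (adjusted p = 0.0465), fell relative to the markers, as did 81.6% of all genes. Spi1 (0.27 ± 0.193), Cd33 (-0.13 ± 0.194), Inpp5d (-0.09 ± 0.173) and Hcst (0.78 ± 0.568) did not pass. The Syk call was lost without WT 2 (-0.47, adjusted p = 0.0795), and that of Plcg2 under 14 of 19 alternatives (adjusted p up to 0.143), so that Plcg2 is at the edge of the threshold.

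With the duplication present, 5xFAD-Dp16 against Dp16 per marker gave 1.54 ± 0.141 for Trem2 (2.90-fold, adjusted p = 1.54e-07) and 1.10 ± 0.153 for Tyrobp (2.14-fold, adjusted p = 7.07e-07), where 0.811% of all genes rose. Hcst also passed, at 1.72 ± 0.717 (adjusted p = 0.0259). It had 1 to 2 reads per Dp16 library, and its place among the genes tested supports nothing. Hcst lost the call without Dp16 3, Dp16 5, Dp16 14 or 5xFAD-Dp16 9 (adjusted p from 0.0548 to 0.0694), without the filter on low counts (0.0656) and without the high-thalamus libraries (0.108). Syk at -0.07 ± 0.222 and Plcg2 at -0.13 ± 0.183 did not pass, nor did Inpp5d at 0.22, Spi1 at 0.22 or Cd33 at 0.02. Per marker, 0 members were called in 5xFAD-Dp16 against 5xFAD, where 11.3% of all genes were, and 0 in Dp16 against WT, where 0.0876% were. In the first of these, 4371 of all 17132 genes had an unadjusted p below 0.05. Among the members, the values that did were those of Syk, Tyrobp and Inpp5d. They were 0.64 ± 0.220 (adjusted p = 0.0599), -0.37 ± 0.148 (adjusted p = 0.104) and 0.42 ± 0.171 (adjusted p = 0.109). Trem2 stood at -0.23 ± 0.135 (unadjusted p = 0.106). The marker list is itself not uniform, since per marker 4 of its genes were higher and 4 lower in 5xFAD against WT, and 1 higher and 3 lower in 5xFAD-Dp16 against Dp16, where 80.4% of all genes were lower.

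**Figure D3:**
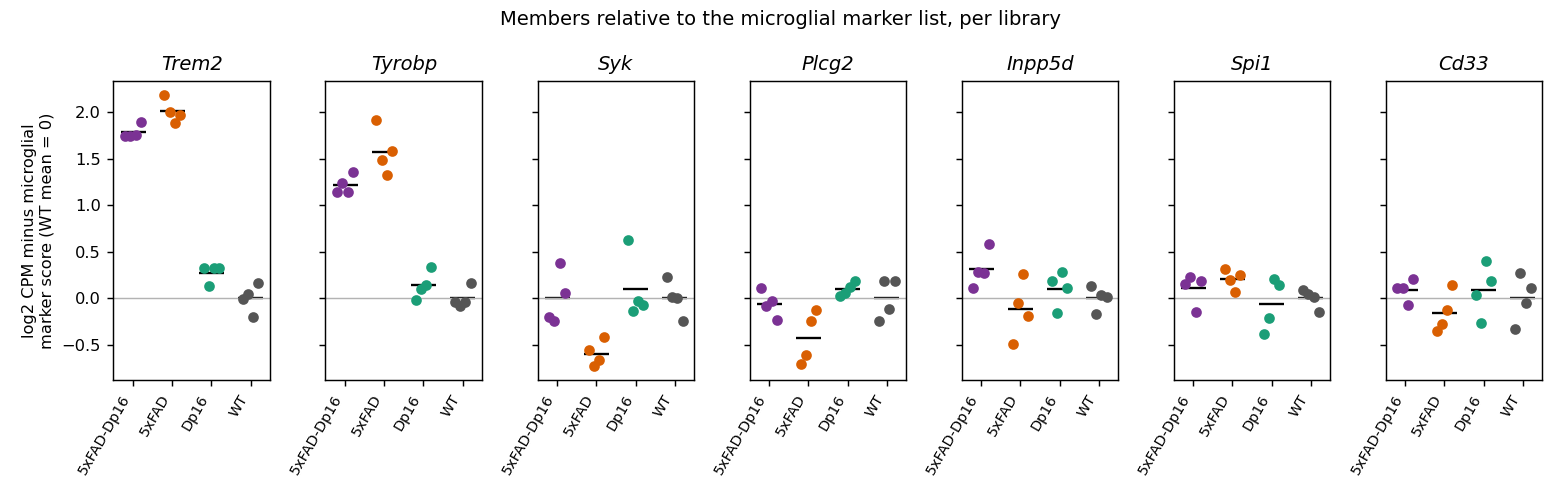
Log2 CPM of 7 members minus the microglial marker score of the same library, with the WT mean set to 0; points are libraries and bars are group means, and Hcst is left out for its low counts. Trem2 lies between 1.74 and 1.90 in 5xFAD-Dp16 and between 1.88 and 2.19 in 5xFAD, and Syk lies below the WT range in each 5xFAD library (-0.73 to -0.42).

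On the per-library values in that plot, Trem2 stood at 1.74 to 1.90 in 5xFAD-Dp16, 1.88 to 2.19 in 5xFAD, 0.13 to 0.33 in Dp16 and -0.20 to 0.16 in WT. Tyrobp stood at 1.14 to 1.36, 1.32 to 1.92, -0.02 to 0.34 and -0.08 to 0.16 in the same order of groups. For Syk the ranges were -0.24 to 0.38 in 5xFAD-Dp16, -0.73 to -0.42 in 5xFAD, -0.14 to 0.63 in Dp16 and -0.24 to 0.23 in WT. Trem2 and Tyrobp thus gained on the markers in every carrier, and the 4 libraries of 5xFAD alone had less Syk per marker than any other library.

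Levels between genes were compared in the deposited RPKM (reads divided by a gene length and by the total of the library). The lengths used are not given in the sources used here, and the order of the genes rests on them. In WT 16, Trem2 had 12.2 CPM and 10.6 RPKM, so the length used was far below its 4946 annotated exonic bases. Without a length, WT means were 11.7 CPM for Tyrobp, 10.2 for Trem2 and 12.9 for Inpp5d. Tyrobp led in all 4 groups, with 92.2 ± 11.8 RPKM in 5xFAD-Dp16, 157 ± 59.3 in 5xFAD, 20.2 ± 2.43 in Dp16 and 20.5 ± 2.98 in WT (SD, n = 4). Trem2 was second, with 59.7 ± 7.71, 90.9 ± 27.3, 9.64 ± 0.619 and 8.87 ± 1.19 RPKM in the same order of groups. Below these came, in the 5xFAD-Dp16, Dp16 and WT groups, Inpp5d, Spi1, Plcg2, Cd33, Syk and Hcst, the last at 0.890 ± 0.157 RPKM in 5xFAD-Dp16, 1.74 ± 1.46 in 5xFAD, 0.124 ± 0.0479 in Dp16 and 0.391 ± 0.0991 in WT. In 5xFAD, Spi1 (6.82 ± 1.78 RPKM) ranked before Inpp5d (5.83 ± 1.61 RPKM), and Hcst before Syk (1.28 ± 0.292 RPKM). Neighbours whose ranges over libraries overlapped were Inpp5d and Spi1 in all 4 groups, Spi1 and Plcg2 in all but 5xFAD, Cd33 and Syk in Dp16 and WT, and in 5xFAD also Tyrobp and Trem2, Cd33 and Hcst, and Hcst and Syk.

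**Figure D4:**
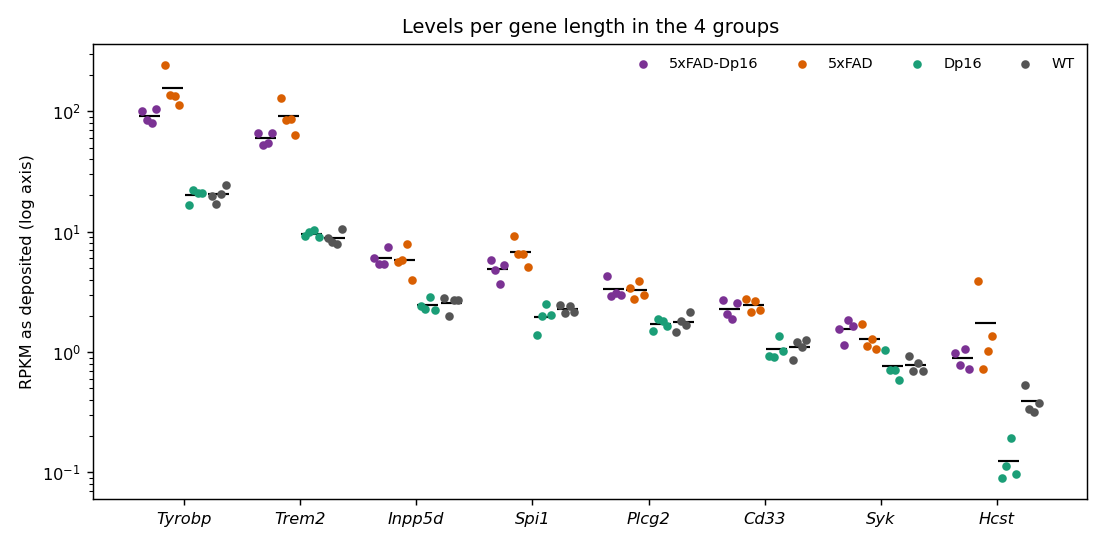
Deposited RPKM of the 8 genes on a log axis, ordered by their WT mean; points are libraries, bars are group means (n = 4). On this scale Tyrobp and Trem2 lie apart from the other 6 genes in each group. They have 20.5 and 8.87 RPKM on average in WT, where the gene after them, Inpp5d, has 2.55. The gap rests on the gene lengths behind the deposited values, since WT means in CPM were 10.2 for Trem2 and 12.9 for Inpp5d.

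The ratios of Trem2 to Tyrobp and to Syk had higher medians in the groups with the transgenes than in those without. For Tyrobp the ranges of 5xFAD and Dp16 libraries overlapped. The ratio of Trem2 to Tyrobp in RPKM was 0.618 to 0.675 in 5xFAD-Dp16, 0.528 to 0.643 in 5xFAD, 0.429 to 0.556 in Dp16 and 0.385 to 0.478 in WT libraries, with medians of 0.649, 0.597, 0.470 and 0.439. Receptor to kinase, the ratio of Trem2 to Syk was 29.2 to 45.1 in 5xFAD-Dp16, 60.9 to 76.5 in 5xFAD, 8.94 to 15.4 in Dp16 and 9.44 to 15.3 in WT libraries. The 5xFAD libraries had the highest Trem2 per Syk without overlap with any other group, and those of 5xFAD-Dp16 came next. These ratios were not tested, and their size rests on the gene lengths behind the deposited RPKM.

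Female carriers had the higher group mean of Trem2, at 75.8 CPM against 62.3 in males of 5xFAD-Dp16, and 117 against 82.2 in 5xFAD. Tyrobp followed, with 57.6 CPM in females against 47.6 in males of 5xFAD-Dp16, and 101 against 67.4 in 5xFAD. The transgene effect in females minus that in males was positive for all 8 members, from 0.05 ± 0.248 (Spi1) to 0.36 ± 0.213 (Trem2, unadjusted p = 0.120, adjusted p = 0.954), but 0 of 8 passed and 0 had an unadjusted p below 0.05. Of all genes 0 were called (0%; 619 with an unadjusted p below 0.05, 3 called by DESeq2), and each cell of genotype and sex held 2 libraries. The thalamus list also leaned toward females in this contrast, with a median of 2.46 over 10 genes and 0 called; its part in the values of the members was not tested.

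Other genes of the pathway were taken from 6 lists. Of the Trem gene cluster only Treml2, a receptor gene of myeloid and lymphoid cells, was tested (1 of 5 in the table), and it rose by 3.81 ± 0.393 in 5xFAD-Dp16 against Dp16 (3.18 ± 0.463 against 0.223 ± 0.178 CPM, adjusted p = 1.57e-05) and by 2.67 ± 0.351 in 5xFAD against WT (3.67 ± 0.950 against 0.572 ± 0.160 CPM, adjusted p = 1.16e-04). Reads of Treml2 were few without the transgenes, at 1 to 10 per Dp16 library and 8 to 19 per WT library. Its Dp16 mean was below the filter's limit of 0.436 CPM, so its value against Dp16 rests on few reads. Receptors that share the adaptor Tyrobp or its kind numbered 10, of which 3 were tested and all 3 rose in both comparisons. Of all genes tested, 2.99% rose in 5xFAD-Dp16 against Dp16 and 5.31% in 5xFAD against WT. Per microglial marker, 1 of the 3 was higher in each comparison, where 0.811% and 0.852% of all genes were, in the same order. Clec5a, a Tyrobp-coupled lectin, rose by 1.22 ± 0.226 and 1.5 ± 0.226 in 5xFAD-Dp16 against Dp16 and in 5xFAD against WT. Siglech, a microglial lectin, rose by 1.08 ± 0.148 and 1.13 ± 0.149, and Cd300c2 by 1.91 ± 0.187 and 1.95 ± 0.185, though how reads shared with related Cd300 genes were counted is not given in the sources used here.

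Among 35 tested kinases, scaffolds and effectors that act downstream of the activation motif, 15 rose and 0 fell in 5xFAD-Dp16 against Dp16. In 5xFAD against WT 16 rose and 1 fell. Of all genes tested, 2.99% and 5.31% rose in these comparisons. The median log2 fold change of the 35 was 0.33 in each. Lat2, a membrane scaffold of myeloid cells, rose by 1.83 ± 0.234 and 2.53 ± 0.240 in these comparisons. Dock2, an activator of Rac in blood cells, rose by 1.48 ± 0.151 and 1.52 ± 0.152, and the Syk-binding adaptor gene Sh3bp2 by 1.11 ± 0.148 and 1.38 ± 0.149. Prkcb, a protein kinase C gene also used by neurons, was the gene that fell, to 233 ± 52.3 CPM in 5xFAD against 373 ± 50.5 CPM in WT (log2 -0.68 ± 0.168, adjusted p = 0.0233), and stood at -0.19 ± 0.167 in 5xFAD-Dp16 against Dp16. Paralogs used mainly outside myeloid cells did not pass in either comparison, with Plcg1 at 0.06 ± 0.0711 and -0.10 ± 0.0712 and Zap70, the T cell relative of Syk, at -0.24 ± 0.175 and -0.10 ± 0.177. Per microglial marker, 3 of the 35 genes were higher and 18 lower in 5xFAD-Dp16 against Dp16. On that scale 1 was higher and 20 lower in 5xFAD against WT. Of all genes, 80.4% and 81.6% were lower per marker in these comparisons, and 0.811% and 0.852% were higher.

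The list of inhibitory genes, without Inpp5d and Cd33, had 19 tested, of which 8 rose in 5xFAD-Dp16 against Dp16. In 5xFAD against WT 7 rose and 1 fell. Of all genes tested, 2.99% and 5.31% rose in these comparisons. Per microglial marker, 4 of the 19 were higher and 7 lower in the first comparison, and 5 higher and 6 lower in the second. On that scale 0.811% and 0.852% of all genes were higher, and 80.4% and 81.6% lower, in these comparisons. Fcgr2b, the inhibitory Fc receptor gene, had 20.7 ± 4.98 CPM in 5xFAD-Dp16 against 3.69 ± 1.36 CPM in Dp16, and 26.2 ± 10.5 CPM in 5xFAD against 3.42 ± 0.950 CPM in WT. Its log2 fold changes were 2.50 ± 0.235 (adjusted p = 9.08e-06) and 2.93 ± 0.239 (adjusted p = 1.20e-06). Ptpn6, the phosphatase SHP-1 that inhibitory motifs recruit, rose by 1.83 ± 0.160 and 2.02 ± 0.160, and Lair1, a collagen-binding inhibitory receptor gene, by 1.57 ± 0.163 and 1.42 ± 0.162. Inppl1, the paralog of Inpp5d, did not pass at 0.32 ± 0.107 (adjusted p = 0.182) and 0.18 ± 0.106 (adjusted p = 0.314).

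Ligands of Trem2 and genes of its cleavage and cell-surface regulation were called as follows, with 3 of 16 tested genes higher in 5xFAD-Dp16 against Dp16 and 7 of 16 in 5xFAD against WT. Of all genes tested, 2.99% and 5.31% rose in these comparisons. Per microglial marker, 0 of the 16 were higher in either, while 12 were lower in the first and 11 in the second. On that scale 0.811% and 0.852% of all genes were higher, and 80.4% and 81.6% lower, in these comparisons. The lipoprotein gene Apoe, which encodes a Trem2 ligand, had 3420 ± 438 CPM in 5xFAD-Dp16 against 2260 ± 155 CPM in Dp16 (log2 0.59 ± 0.120, adjusted p = 0.00792). In 5xFAD it had 4590 ± 849 CPM against 2560 ± 70.6 CPM in WT (0.84 ± 0.120, adjusted p = 3.01e-04). Lgals3 (1.53 ± 0.333, adjusted p = 0.0107), which encodes galectin-3, and Anxa5 (0.75 ± 0.173, adjusted p = 0.0171), which encodes a protein that binds phosphatidylserine, rose in 5xFAD against WT. Their values in 5xFAD-Dp16 against Dp16 were 1.01 ± 0.335 (adjusted p = 0.172) and 0.39 ± 0.173 (adjusted p = 0.402).

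Of 13 tested myeloid transcription factors other than Spi1, 6 rose in 5xFAD-Dp16 against Dp16 and 7 in 5xFAD against WT. Of all genes tested, 2.99% and 5.31% rose in these comparisons. Per microglial marker, 2 of the 13 were higher and 7 lower in the first, and 1 higher and 8 lower in the second. On that scale 0.811% and 0.852% of all genes were higher, and 80.4% and 81.6% lower, in these comparisons. Irf8, a partner of PU.1, rose by 2.05 ± 0.160 and 2.09 ± 0.159 in these comparisons, and the myeloid factor gene Cebpa by 0.77 ± 0.145 and 0.85 ± 0.145. Runx1 lies on chromosome 16 within the duplicated segment (chr16:92601466-92826149). It had 7.01 ± 0.681 CPM in 5xFAD-Dp16, 5.01 ± 0.606 in 5xFAD, 1.98 ± 0.674 in Dp16 and 1.71 ± 0.257 in WT, with log2 fold changes of 1.83 ± 0.205 in 5xFAD-Dp16 against Dp16 (adjusted p = 3.43e-05) and 1.54 ± 0.207 in 5xFAD against WT (adjusted p = 1.45e-04). Its values for the duplication were 0.20 ± 0.214 in Dp16 against WT and 0.49 ± 0.193 in 5xFAD-Dp16 against 5xFAD (adjusted p = 0.197), neither of which passed. Spib and Spic, the close relatives of Spi1, were not tested, having at most 4 and 3 reads in any library. None of the 6 lists had a called gene in Dp16 against WT or in 5xFAD-Dp16 against 5xFAD.

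**Figure D5:**
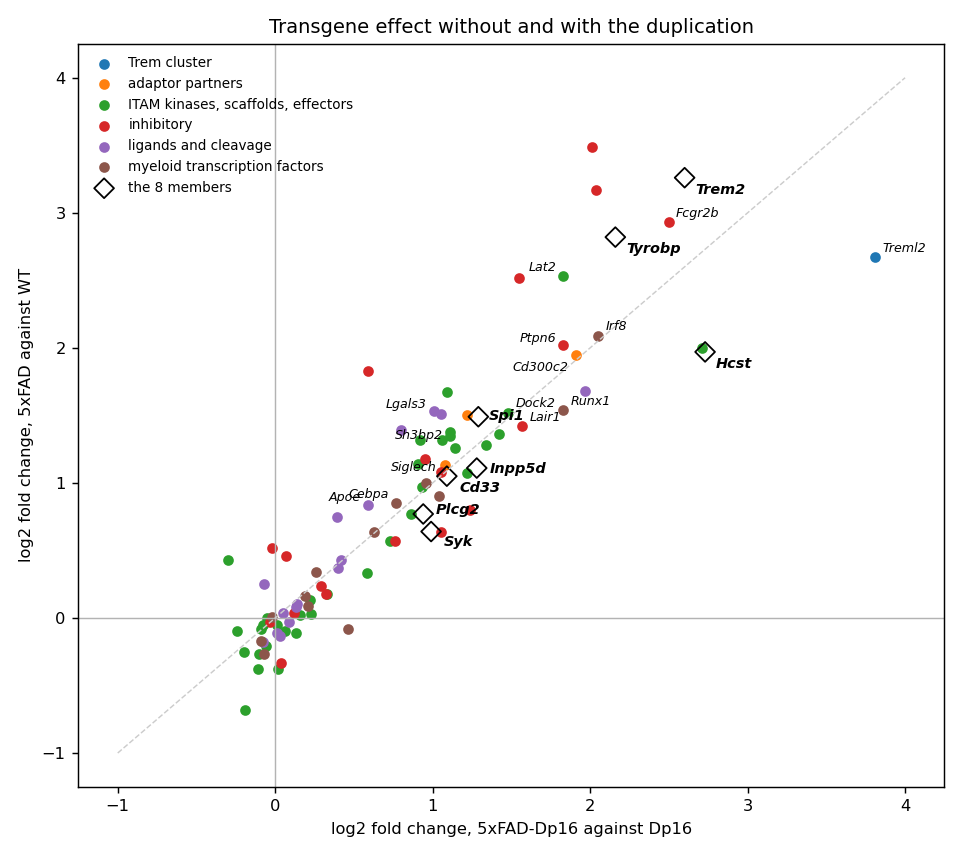
Log2 fold change in 5xFAD against WT (vertical) against that in 5xFAD-Dp16 against Dp16 (horizontal) for each tested gene of the 6 pathway lists, coloured by list, and for the 8 members (diamonds); the dashed line marks equal values. Trem2 and Tyrobp lie above the line (3.26 and 2.60 for Trem2), and Treml2 lies below it (2.67 and 3.81). Treml2 had only 1 to 10 reads per Dp16 library.

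Likeness of pattern was measured as the root mean square difference in log2(CPM + 0.5) over the 16 libraries, each gene centred at its own mean. It was taken among 15836 genes whose mean on that log2 scale was not negative, and describes these libraries only. The gene nearest to Trem2 was Tyrobp (0.250), followed by Cd68 (0.253) and Cd52 (0.273). Nearest to Tyrobp were Mpeg1 (0.203), Ly86 (0.234) and Slc15a3 (0.242). Syk was nearest to Lyn (0.217), Plcg2 to Entpd1 (0.170), Inpp5d to Pik3cg (0.143), Spi1 to Rnase4 (0.182) and Cx3cr1 (0.186), and Cd33 to Lgals9 (0.121). Trem2 was 1.12 from Syk and 1.07 from Plcg2 on this measure, while Plcg2 and Cd33 were 0.19 apart.

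Markers of other cells that can express these genes were read beside the members. Of 7 border macrophage markers, 0 were called in any of the 4 genotype comparisons, and their summed level was 6.23 to 19.1 CPM in 5xFAD-Dp16, 9.52 to 21.3 in 5xFAD, 4.12 to 11.5 in Dp16 and 7.77 to 18.2 in WT libraries. Monocyte and neutrophil markers summed to 0.290 to 4.11, 1.17 to 3.83, 0.890 to 2.03 and 0.0617 to 1.25 CPM in the same order, with 2 of 8 tested and 0 called. Lymphocyte markers summed to 1.40 to 3.23, 1.01 to 2.50, 0.508 to 0.909 and 0.168 to 0.432 CPM, with 1 of 8 tested, the T cell gene Cd3e. Its fitted log2 fold change was 2.43 in 5xFAD-Dp16 against Dp16 and 3.66 in 5xFAD against WT. With the whole list at 0.432 CPM or less in WT, Cd3e was below the filter's limit of 0.436 CPM in every WT library. Its place among the genes tested thus supports nothing, and it had no reads in 3 libraries. No border macrophage marker was at 0 in any library, and in every library 1 or more of the monocyte and neutrophil markers were. In every library 2 or more of the 8 lymphocyte markers were at 0, and the part of these cells in the levels of the members was not tested.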

How the data were processed

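Per the labels' protocols, TRIzol extracts were enriched for polyadenylated RNA and made into stranded libraries read in pairs on an Illumina instrument. Build GRCm38 and the tools HTSeq 0.6.1, SAMtools 1.5, HISAT2 2.1.0, FastQC 0.11.5 and bcl2fastq stand in the submitters' processing notes without their roles or the strand setting, so how reads shared between near-identical genes were handled is not given in the sources used here. The authors deposited raw read counts per gene and RPKM values. Tests used the counts, and RPKM served for levels between genes and for 2 alternatives. Groups and replicate numbers come from the sample titles, and each number names 1 library only. The design text counts mice per group, and p-values measure the spread between these libraries.

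Genes were kept by filterByExpr with a minimum count of 10, scaled by trimmed mean of M values and fitted with edgeR 4.0.16 (R 4.3.3, quasi-likelihood, robust) with the 4 groups and sex over all 16 libraries. Benjamini-Hochberg adjustment ran over all genes tested and a gene was called below 0.05. The fit per microglial marker replaces library sizes by the geometric mean CPM of 14 markers. Positions are from GENCODE M21 on GRCm38, and promoter windows from RefSeq. The members and lists were chosen with earlier results of these data known. Named were the 8 members, the 3 genes nearest to each in pattern, up to 3 called genes per direction and pathway list by p in 5xFAD against WT, and 5 paralogs; for some members only the nearest genes are printed, and a few named genes are not reported here. Alternatives were other scalings, no filter, DESeq2 1.42.0, limma 3.58.1 on log2(RPKM + 0.1) and log2(RPKM + 1), no sex term, fewer groups, the thalamus score as a term or its high libraries left out, a marker offset from 4 of the markers alone, and each library left out. The fit was tested on simulated data. The lowest chi-square per degree of freedom between replicates of a group was 6.36, so no pair of replicates agreed within sampling noise; pairs across groups were not compared.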

Additional observations from a re-analysis of the deposited data

Results flagged for a closer look

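Within each group of 4 libraries, 2 of 32 combinations of member and group had a library far from the others, where chance gives about 1 in 20. Hcst stood at 1.61 CPM (40 reads) in 5xFAD 6, and the next 5xFAD library had 0.527 CPM, a gap of 0.843 of the group's range. Cd33 stood at 8.64 CPM in Dp16 12, and the next Dp16 library had 6.05 CPM, a gap of 0.936 of the range.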

How the results depend on the processing

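Counts of called members held within 1.5 times under all alternatives in 5xFAD-Dp16 against Dp16 (6 to 8 with a library left out, 7 to 8 otherwise), in Dp16 against WT (0), between the sexes (0) and per microglial marker. In 5xFAD against WT 7 were called, 6 to 8 with a library left out, and 4 without the libraries of high thalamus marker score, the lone 5xFAD library then being assumed to vary like the other groups. Of the lost calls, Hcst stood at 0.81 (adjusted p = 0.8), and in 5xFAD-Dp16 against Dp16 its call was also lost there (2.56) and with limma on log2(RPKM + 1) (0.75). In 5xFAD-Dp16 against 5xFAD 0 members were called, 0 to 1 with a library left out, and 2 with DESeq2 and, in edgeR, 2 without the filter on low counts; for the interaction 2 were called without that filter, against 0. The cause was not tested. Over all member values, 1379 of 1496 alternatives kept direction and side of the threshold, 38 lost a call, 12 gained one and 67 turned in sign, all 67 called in neither setting. In Dp16 against WT, Tyrobp turned to 0.01 with relative log expression factors, without the sex term and with DESeq2, and to 0 without a filter and with only the groups compared. Syk there was 0 without the sex term and with the thalamus term, -0.05 and -0.02 with limma, and Cd33 was 0 without the high-thalamus libraries. In 5xFAD-Dp16 against 5xFAD, Cd33 was 0.01 with relative log expression factors and with the thalamus term and 0.02 with DESeq2, and without the high-thalamus libraries Hcst was 0.26 and Inpp5d -0.01. The interaction of Cd33 was -0.04 without those libraries and -0.02 and -0.03 with limma, and that of Hcst -0.11 with limma. The sex difference of Hcst was -0.32 with the thalamus term. Per marker, Cd33 was -0.08 in 5xFAD-Dp16 against Dp16 with 4 markers, and Hcst -0.4 in 5xFAD against WT without the high-thalamus libraries. With a library left out, values in Dp16 against WT ranged from -0.06 to 0.17 (Tyrobp), -0.25 to 0.11 (Syk), -0.15 to 0.1 (Plcg2), -0.1 to 0.08 (Inpp5d) and -0.18 to 0.06 (Cd33), and in 5xFAD-Dp16 against 5xFAD from -0.06 to 0.05 (Cd33). They ranged from -0.07 to 0.17 for the interaction of Cd33, and for the sexes from -0.55 to 0.39 (Hcst), -0.13 to 0.33 (Syk), -0.02 to 0.35 (Inpp5d) and -0.08 to 0.2 (Spi1). Per marker they ranged from -0.24 to 0.04 (Inpp5d, 5xFAD against WT), and in 5xFAD-Dp16 against Dp16 from -0.08 to 0.19 (Cd33) and -0.22 to 0.17 (Syk). The count of all genes called moved more: 1244 in 5xFAD against WT became 2692 without a filter, 2124 with DESeq2, 516 with only the groups compared, 301 without the high-thalamus libraries and 562 to 3486 with a library left out, and 52 in 5xFAD-Dp16 against 5xFAD became 1656, 720, 10, 101 and 32 to 2045. In 5xFAD-Dp16 against Dp16 518 became 890 without a filter, and in Dp16 against WT 39 became 360 without a filter, 74 with DESeq2 and 69 without the high-thalamus libraries, while the interaction became 290 and 15 from 0 and the sex difference 278 and 3 (DESeq2) from 0. No paired analysis was possible because each replicate number belongs to 1 library only. Depth limits Hcst alone among the members, with 1 to 4 reads in each library without transgenes.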
